A study of Mus musculus with 6 samples.

Results

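MHC class I presentation was described here by 10 genes, all of which could be read from the deposited table of 7834 gene names, where they fill 28 of 13747 rows. They were listed by name, as the heavy chains H2-K1, H2-D1, H2-T23, H2-Q4 and H2-Q7, the light chain B2m, the peptide transporter subunits Tap1 and Tap2, the loading protein Tapbp and the peptidase Erap1. The list was drawn up by name and with earlier results of these data known. The cells were peritoneal B-1a and B-1b cells, sorted by flow cytometry from wild-type (WT) C57BL/6 mice that had received no treatment, and their poly-A RNA was sequenced, with 3 replicates stated per group. The sources used here do not give the age of the mice for these libraries, or whether a replicate was 1 mouse or a pool. Reads had been placed on GRCm38/mm10 by HISAT2 and assembled into transcript levels by StringTie, and the values were taken to be FPKM, that is, fragments scaled to transcript length and to library size. B-1b replicate 3 repeats B-1b replicate 1 and B-1a replicate 3 is the mean of B-1a replicates 1 and 2 in all 28 rows of the 10 genes (relative tolerance 1e-06), so each group has 2 libraries. Nothing says that these came from separate mice, so the p-values measure the spread between these libraries only, which may be technical.

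A class I molecule shows peptides from inside the cell to CD8 T cells and NK cells. Cytosolic proteins are cut by the proteasome, the peptides are pumped into the endoplasmic reticulum by the TAP transporter, trimmed by ERAP1 and loaded, with the help of tapasin, onto a heavy chain that is paired with beta-2-microglobulin. The classical heavy chains present to CD8 T cells in nearly all nucleated cells, while the nonclassical ones have narrower ligands and receptors, and interferon raises most genes of the pathway together.

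The 10 genes spanned a 596-fold range of level and showed no common direction between the subsets. Of the 10, 4 had a higher and 6 a lower mean log2 value in B-1b. The median of their log2 fold changes was -0.06, and that of all 7557 genes tested was 0.05. Tap1 was at 0.493 times its mean B-1a level in B-1b, H2-Q7 at 1.92 times, H2-Q4 was lower, and the abundant H2-K1, H2-D1 and Tapbp were near equal. Limma, applied to log2(FPKM + 1) over all genes with Benjamini-Hochberg adjustment, called 0 of the 10 genes at an adjusted p below 0.05, where it called 0.198% of all genes, and the adjusted p-values of the 10 ran from 0.239 to 0.971. At an unadjusted p below 0.05, limma passed 3 of them (Tap1, H2-Q7 and H2-Q4), against 9.66% of all genes. With each library left out in turn, Tap1 had a log2 fold change of -1.09 to -0.90. For H2-Q7 it was 0.71 to 1.16, and for H2-Q4 -0.90 to -0.60. Each of these fits leaves 1 library in a group and assumes that it varies like those of the other group, so these ranges are no test of stability. The libraries of the subsets did not overlap for 7 of the 10, of which 3 were higher in B-1b (H2-D1, H2-Q7 and Erap1, against 25.8% of all genes) and 4 lower (H2-T23, H2-Q4, B2m and Tap1, against 17.3%). Since fold changes are on the scale of log2(FPKM + 1), they understate the change of low genes such as H2-Q4.

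**Figure D1:**
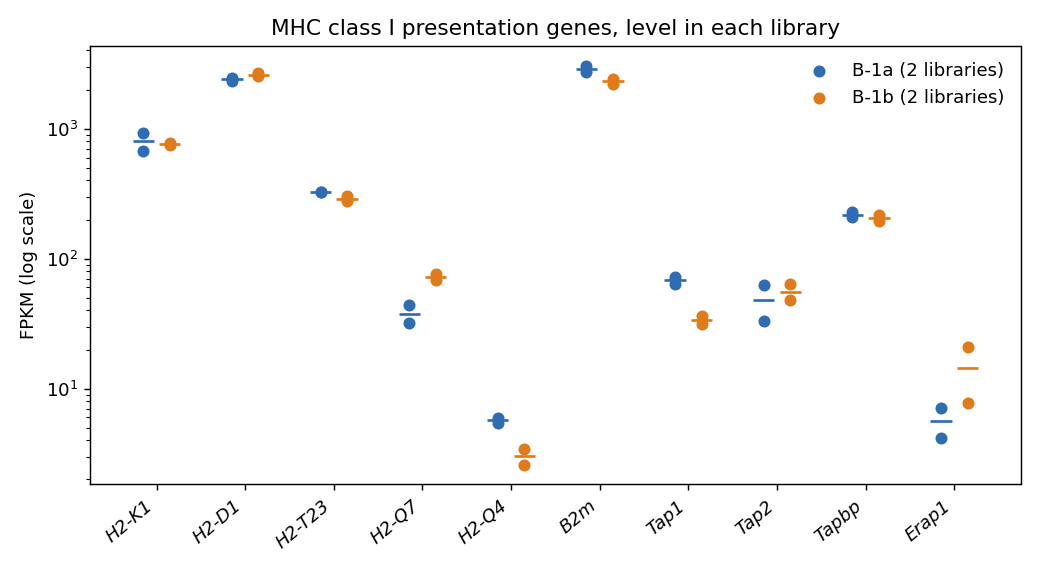
FPKM of the 10 genes in each of the 4 libraries on a log scale, with B-1a in blue and B-1b in orange and a line at each group's mean. B2m and H2-D1 lie highest and H2-Q4 lowest, and the groups stand clearly apart for Tap1, H2-Q7 and H2-Q4.

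The summed FPKM of a library lay between 324330 and 366992, and the values give no sequencing depth, so no counting error is given. Cd5, the surface marker that separates the subsets in the sort, was at 0.446 and 0.757 FPKM in B-1a and at 0.895 and 0.737 FPKM in B-1b, so its RNA does not separate the groups, which are named by their labels. All 5 B cell markers were read, summing to between 3388 and 3956 FPKM. Macrophages also present on class I, and all 5 of their markers were above 0 in every library, summing to 4482 and 3371 FPKM in B-1a and to 4128 and 7037 FPKM in B-1b. Most of that sum was Lyz2, the macrophage lysozyme, at 3238 to 6824 FPKM. Of the 5, 3 (Adgre1, Csf1r and Cd68) were higher in both B-1b libraries than in both B-1a libraries, against 25.8% of all genes. The other 2 overlapped. Adgre1, which encodes F4/80, was at 51.1 and 56.0 FPKM in B-1a and at 90.4 and 101 FPKM in B-1b. The part of these cells in the values below was not tested. In bulk samples, fewer cells of a type and less RNA per cell cannot be told apart.

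H2-K1 and H2-D1 encode the classical heavy chains H-2K and H-2D and lie on chromosome 17 of GRCm38, from 33996017 to 34000347 and from 35262730 to 35267499. H2-K1 was at 672 and 923 FPKM in B-1a and at 782 and 751 FPKM in B-1b. Both B-1b values fell between the B-1a values, and the log2 fold change was -0.04 ± 0.23 (SE, limma-adjusted p = 0.971). Its sign rests on 1 library, since it was 0.19 without B-1a replicate 2. H2-D1 was at 2331 and 2461 FPKM in B-1a and at 2523 and 2699 FPKM in B-1b. Both B-1b libraries were above both B-1a libraries, though by little, with a log2 fold change of 0.12 ± 0.215 (SE, limma-adjusted p = 0.873). In every library H2-D1 was the most abundant of the 12 class I heavy chain genes measured, making up 63.9% ± 2.42 of their summed FPKM in B-1a against 65.4% ± 1.21 for B-1b (SD, n = 2 each). H2-K1 made up 21.1% ± 3.13 and 19.2% ± 1.11 (SD, n = 2 each), so the ratio of the classical chains differed by less than the spread between libraries (0.288 and 0.375 in B-1a, 0.310 and 0.278 in B-1b).

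The table gives H2-K1 in 11 rows and H2-D1 in 4, which carry no transcript names. The largest row held 78.9% to 84.2% of H2-K1 and 95.8% to 96.1% of H2-D1, and these rows had log2 fold changes of -0.07 and 0.12. Only 3 of the minor rows stood apart from them. The other minor rows overlapped between the subsets, with log2 fold changes of -0.17 to 0.24. The second row of H2-D1 was at 3.05 and 3.26 FPKM in B-1a and at 8.57 and 10.9 FPKM in B-1b, with a log2 fold change of 1.36 ± 0.27 (SE, limma-adjusted p = 0.284 over 12137 rows). The ninth row of H2-K1 was at 0.856 and 2.36 FPKM in B-1a and at 8.23 and 5.27 FPKM in B-1b (log2 ratio 1.61, limma-adjusted p = 0.424), and the last row was at 0.767 and 0.786 against 3.996 and 2.99 FPKM (log2 fold change 1.33, limma-adjusted p = 0.378). In all 3 rows both B-1b libraries lay above both B-1a libraries, while the main row of H2-K1 overlapped. Of the 28 rows of the 10 genes, limma called 0 at an adjusted p below 0.05, against 0.0494% of all rows, and passed 6 at an unadjusted p below 0.05, against 9.88% of all rows. Rows of 1 gene share reads and are not independent.

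H2-T23 encodes Qa-1, which carries leader peptides of other class I chains to NK receptors, and lies on chromosome 17 from 36029773 to 36032855. It was the most abundant of the nonclassical genes, at 327 FPKM in both B-1a libraries and at 276 and 304 FPKM in B-1b. Both B-1b values were lower, with a log2 fold change of -0.18 ± 0.15 (SE, limma-adjusted p = 0.732). Its share of the heavy chain FPKM was 8.72% ± 0.655 in B-1a against 7.26% ± 0.289 for B-1b (SD, n = 2 each).

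H2-Q7 and H2-Q4 are Qa-2 region genes of chromosome 17, and their values lay on opposite sides of 0. H2-Q7, one of the genes that encode the Qa-2 antigen, lies from 35439155 to 35443773. It was at 31.9 and 43.8 FPKM in B-1a and at 68.8 and 76.4 FPKM in B-1b. The groups did not overlap, and the log2 fold change was 0.94 ± 0.21 (SE, limma-adjusted p = 0.319), a ratio of the means of 1.92. H2-Q4, which encodes Qb-1 and lies from 35379617 to 35385290, had levels of 5.46 and 5.98 FPKM in B-1a and of 3.43 and 2.61 FPKM in B-1b. Here both B-1b libraries were lower, with a log2 fold change of -0.75 ± 0.25 (SE, limma-adjusted p = 0.482). The ratio of H2-Q7 to H2-Q4 within a library was 5.85 and 7.32 in B-1a and 20.1 and 29.3 in B-1b, a ratio chosen after its values were seen. For all ratios and shares of 2 libraries against 2, an exact two-sided permutation test cannot go below p = 0.333, so none can pass a threshold of 0.05.

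H2-Q6, the neighbouring Qa-2 gene from 35424850 to 35430055, was at 55.2 and 69.3 FPKM in B-1a and at 117 and 93.7 FPKM in B-1b, with a log2 fold change of 0.75 ± 0.21 (SE, limma-adjusted p = 0.398). It has 2 rows. The first was alike in both subsets, at 29.2 and 38.7 FPKM in B-1a and at 35.4 and 29.5 FPKM in B-1b. The second row was at 25.99 and 30.6 FPKM in B-1a and at 82.1 and 64.1 FPKM in B-1b, so the second row carried the difference of H2-Q6 and made up 47.1% and 44.2% of the gene in B-1a and 69.9% and 68.5% in B-1b. Class I genes are close copies of each other, and the authors' quantification could have split reads between them. Of the distinct stretches of 75 bases in the GENCODE M21 transcripts of H2-Q7, 16.95% also occur in transcripts of another gene, with H2-Q10, H2-Q5 and H2-Q6 sharing most, as do 17.9% for H2-Q6, 7.02% for H2-Q4, 5.91% for H2-T23, 5.40% for H2-D1 and 3.10% for H2-K1. For B2m, Tap1, Tap2 and Erap1 the share was 0%.

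The promoters of these genes are near copies too, and they are shown to let these close copies be compared. Each line gives the 250 bases before the RefSeq start site on GRCm38.p6, plus strand, at chr17:35438905-35439154 for H2-Q7, chr17:35424600-35424849 for H2-Q6 and chr17:35379367-35379616 for H2-Q4. Capitals mark the kappaB core GGGATTCCC, bound by NF-kappaB, and the core TGACG of the cyclic AMP response element, as found on either strand.

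H2-Q7: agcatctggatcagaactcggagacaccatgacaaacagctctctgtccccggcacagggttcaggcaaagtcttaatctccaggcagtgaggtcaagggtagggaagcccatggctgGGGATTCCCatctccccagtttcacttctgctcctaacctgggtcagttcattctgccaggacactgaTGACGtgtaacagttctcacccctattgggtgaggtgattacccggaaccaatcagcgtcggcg

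H2-Q6: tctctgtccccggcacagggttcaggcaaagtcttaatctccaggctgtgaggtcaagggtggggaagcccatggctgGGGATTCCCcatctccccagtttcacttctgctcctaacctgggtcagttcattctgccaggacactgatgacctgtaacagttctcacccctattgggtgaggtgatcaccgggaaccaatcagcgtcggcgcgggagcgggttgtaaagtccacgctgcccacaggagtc

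H2-Q4: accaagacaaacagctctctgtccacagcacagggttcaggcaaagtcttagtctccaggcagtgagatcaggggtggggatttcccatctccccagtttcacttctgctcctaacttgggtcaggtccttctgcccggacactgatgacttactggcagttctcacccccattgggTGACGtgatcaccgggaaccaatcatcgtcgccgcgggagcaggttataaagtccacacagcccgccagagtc

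In the aligned part, H2-Q7 and H2-Q6 were identical at 205 of 210 bases (97.6%), and H2-Q7 and H2-Q4 at 188 of 210 (89.5%). The letters GGGATTCCC were found in the windows of H2-Q7 and H2-Q6 but not in that of H2-Q4, which says only that these exact letters are not there. The general NF-kappaB consensus, which overlaps these letters, was found on either strand in the windows of all 3 genes (in H2-Q4 at 2 overlapping places, from bases -174 and -173 relative to the start), and in 8.46% of all windows. The letters TGACG were found in the windows of H2-Q7 and H2-Q4 but not in that of H2-Q6. They lie at different places of the copied sequence, before the shared letters cagttctcaccc in H2-Q7 and after them in H2-Q4. Over the full RefSeq windows, which run from 250 bases before to 50 bases after the start, 9 of the 10 genes had an entry. GGGATTCCC was found for H2-K1, H2-D1 and H2-Q7, against 0.353% of 32851 windows of that length, and TGACG for 6 of the 9 genes, against 20.8%. The full palindromic cyclic AMP response element was found for 0 of the 9 genes, against 1.79%. The interferon-stimulated response element, searched as GAAANNGAA on both strands, was found for B2m, Erap1 and H2-T23, against 8.56%. The genes with GGGATTCCC had log2 fold changes of -0.04, 0.12 and 0.94, and those with the interferon letters -0.33, 1.10 and -0.18. The sign for H2-K1 changed without B-1a replicate 2. The general NF-kappaB consensus was found for 5 of the 9 genes, which are those with GGGATTCCC and also B2m and H2-Q4, with log2 fold changes of -0.33 and -0.75. A match is a description of the letters and not a binding site.

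B2m encodes beta-2-microglobulin, the invariant light chain of all these molecules, and lies on chromosome 2 from 122147686 to 122153083. It had the highest mean level of the 10 genes, at 2753 and 3044 FPKM in B-1a and at 2218 and 2397 FPKM in B-1b. Both B-1b values were lower than both B-1a values, and the log2 fold change was -0.33 ± 0.22 (SE, limma-adjusted p = 0.695). Summed over the 12 genes, the heavy chains were at 3555 and 3960 FPKM in B-1a and at 3906 and 4070 FPKM in B-1b, where the groups overlap. Relative to that sum, B2m was at 0.774 and 0.769 in B-1a and at 0.568 and 0.589 in B-1b, and this ratio does not depend on how the libraries are scaled. The difference between subsets was larger than the spread within them (0.772 ± 0.00398 and 0.578 ± 0.0150, SD, n = 2 each), with the smallest p that the exact permutation test allows, 0.333.

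**Figure D2:**
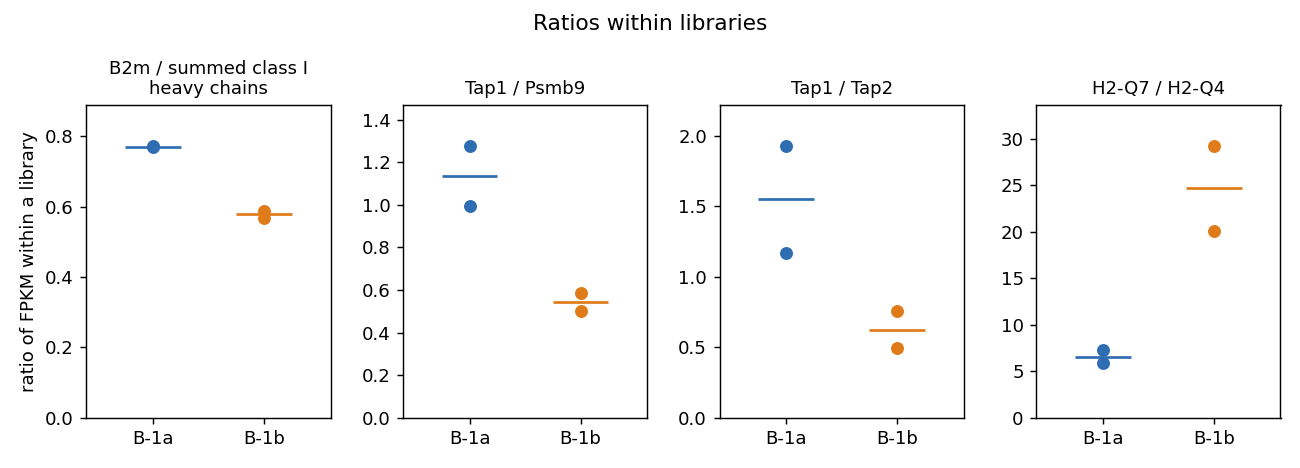
Ratios of FPKM within each library for B2m over the summed class I heavy chains, Tap1 over Psmb9, Tap1 over Tap2 and H2-Q7 over H2-Q4, with B-1a in blue, B-1b in orange and a line at each mean. The 2 points of a subset do not overlap those of the other in any panel, with the first 3 ratios lower and the last higher in B-1b. The ratios of Tap1 and of H2-Q7 were chosen after their values were seen. The ratio of H2-K1 to H2-D1, which overlapped, is not shown.

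Tap1 and Tap2 encode the subunits of the transporter, which works as a heterodimer, and lie on chromosome 17 from 34187553 to 34197225 and from 34203527 to 34216321. Tap1 was at 64.4 and 72.6 FPKM in B-1a and at 31.5 and 36.1 FPKM in B-1b. Both B-1b libraries were far below both B-1a libraries, and the log2 fold change was -1.0 ± 0.16 (SE, limma-adjusted p = 0.239). This was the smallest p of the 10 genes, and leaving out any 1 library gave a log2 fold change between -1.09 and -0.90. Its 2 rows were both lower in B-1b. The main row was at 60.5 and 68.2 FPKM in B-1a and at 30.3 and 34.8 FPKM in B-1b (log2 ratio -0.96, limma-adjusted p = 0.254 over rows), and the minor row at 3.84 and 4.41 against 1.21 and 1.26 FPKM.

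Tap2 did not follow Tap1. It was at 33.4 and 62.3 FPKM in B-1a and at 63.9 and 47.9 FPKM in B-1b, so the groups overlapped, and the log2 fold change was 0.27 ± 0.37 (SE, limma-adjusted p = 0.819), or -0.17 without B-1a replicate 1. The ratio of Tap1 to Tap2 was 1.93 and 1.17 in B-1a and 0.492 and 0.753 in B-1b. The similar totals hid a different split between its 2 rows. The second row held 91.9% and 95.6% of Tap2 in B-1a and 98.7% in B-1b replicate 2, but 5.57% in B-1b replicate 1, where the first row was at 60.4 FPKM and the second at 3.56 FPKM. In the other 3 libraries the first row was at 0.613 to 2.72 FPKM. The split thus differed between the B-1b libraries, not between the subsets, and the rows had standard errors of 1.92 and 1.29 on the log2 scale.

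**Figure D3:**
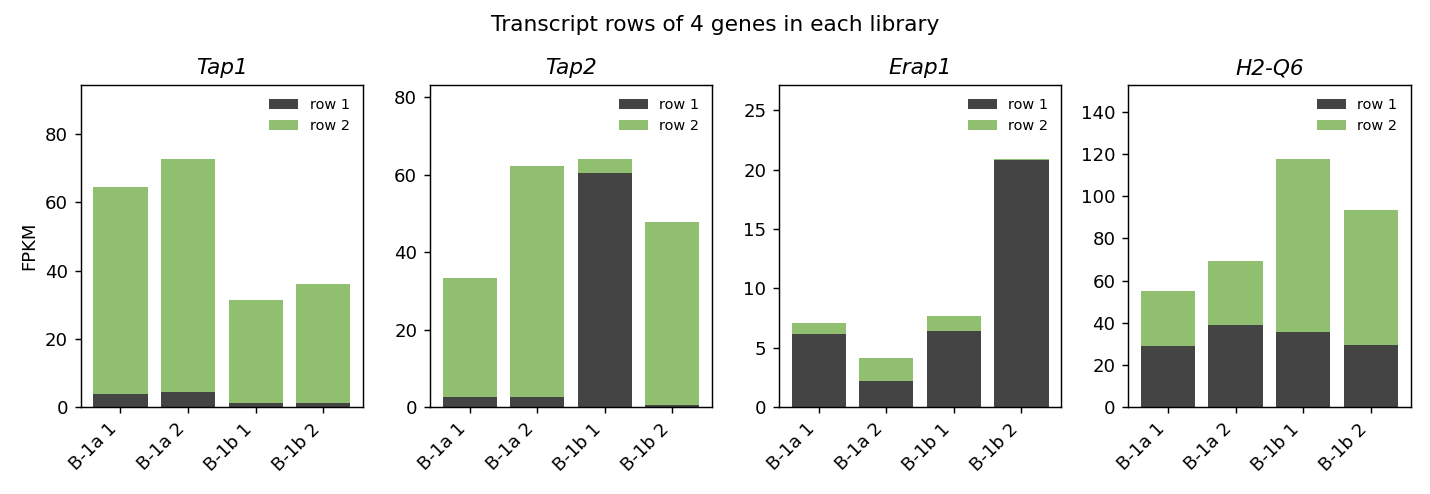
Stacked FPKM of the transcript rows of Tap1, Tap2, Erap1 and H2-Q6 in the 4 libraries, where each colour is 1 row of the table and the bar height is the gene's sum. Both rows of Tap1 are smaller in B-1b, the second row of H2-Q6 is larger in B-1b, and B-1b replicate 1 alone has most of Tap2 in the first row.

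Tap1 shares its promoter region with Psmb9, an immunoproteasome subunit that is read in the other direction. Their RefSeq start sites are 226 bases apart, and their windows overlap by 275 bases. The 250 bases before the Tap1 start, at chr17:34187306-34187555 on the plus strand, are shown for that reason, with the letters TGACG in capitals, which were the only ones of the searched letters found there.

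Tap1: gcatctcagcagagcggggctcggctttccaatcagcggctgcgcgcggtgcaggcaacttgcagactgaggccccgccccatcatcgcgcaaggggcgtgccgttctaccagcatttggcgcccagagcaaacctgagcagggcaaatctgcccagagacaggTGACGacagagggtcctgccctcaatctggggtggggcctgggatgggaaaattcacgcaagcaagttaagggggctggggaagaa

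Psmb9 was at 50.3 and 73.1 FPKM in B-1a and at 62.5 and 61.7 FPKM in B-1b, with a log2 fold change of 0.03 ± 0.23 (SE, limma-adjusted p = 0.976). Its B-1b values lay between its B-1a values, while those of Tap1 lay below both. The ratio of Tap1 to Psmb9 was 1.28 and 0.994 in B-1a and 0.504 and 0.585 in B-1b, again a ratio chosen after its values were seen.

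Tapbp encodes tapasin, which bridges TAP and the empty heavy chain, and lies on chromosome 17 from 33915899 to 33929292. It was at 208 and 227 FPKM in B-1a and at 218 and 195 FPKM in B-1b. The groups overlapped, with a log2 fold change of -0.08 ± 0.16 (SE, limma-adjusted p = 0.897). Erap1 encodes the aminopeptidase that trims peptides in the endoplasmic reticulum and lies on chromosome 13 from 74639568 to 74693201. It was at 7.05 and 4.18 FPKM in B-1a and at 7.69 and 20.9 FPKM in B-1b. Its log2 fold change of 1.10 ± 0.55 (SE, limma-adjusted p = 0.612) rests on B-1b replicate 2, without which it was 0.43, while B-1b replicate 1 was close to B-1a replicate 1.

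**Figure D4:**
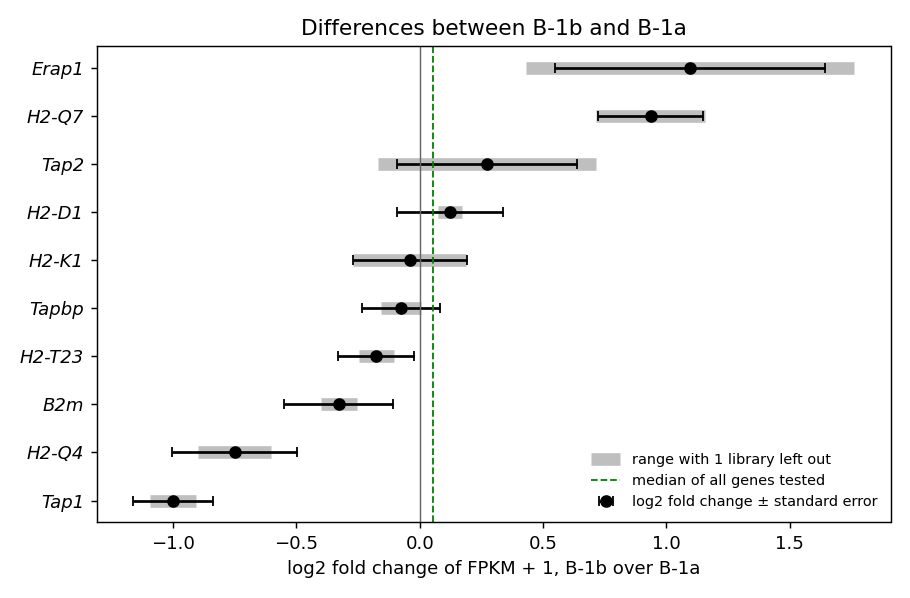
Log2 ratio of B-1b to B-1a for the 10 genes on the scale of log2(FPKM + 1), with black points and bars for the estimate and its standard error, grey bars for the range with 1 library left out, and a dashed line at the median of all genes tested. Tap1 and H2-Q4 stay below 0 and H2-Q7 above 0 over the grey bars, while those of H2-K1, Tap2 and Tapbp cross 0.

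In order of mean level over the 4 libraries, B2m and H2-D1 came first, with ranges that overlap, followed by H2-K1, H2-T23 and Tapbp, each apart from the next. H2-Q7, Tap2 and Tap1 came next, with means of 55.2, 51.9 and 51.1 FPKM and ranges that overlap, and Erap1 and H2-Q4, at 9.95 and 4.37 FPKM, came last and also overlapped. B2m and H2-D1 lay above 99.9% of all genes tested in every library, to the rounding given. The order of Tap1 and H2-Q7 was not the same in the subsets. Both Tap1 values were above both H2-Q7 values in B-1a, and both were below them in B-1b.

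The other genes of the pathway were taken from lists by function, and limma called 0 of the 41 genes tested in 6 lists. At an unadjusted p below 0.05 it passed 5 of the 41 (12.2%), close to the 9.66% of all genes. Among 7 other heavy chain genes, 6 had a positive and 1 a negative log2 fold change (median 0.13), and only H2-Q6 had an unadjusted p below 0.05. H2-M3, which presents formylated peptides, was at 56.6 and 50.3 FPKM in B-1a and at 54.9 and 59.7 FPKM in B-1b. H2-T22, a ligand of gamma-delta T cells, was at 47.6 FPKM in both B-1a libraries and at 46.7 and 45.04 FPKM in B-1b. H2-Q1 was at 14.2 and 14.8 FPKM against 15.5 and 16.4 FPKM. These 3 had log2 fold changes between -0.05 and 0.13. The 4 class I-like genes (Cd1d1, Mr1, Fcgrt and Hfe) had a median of 0.13, and 0 of them had an unadjusted p below 0.05.

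All 6 chaperones of folding and loading had libraries that did not overlap between the subsets, 4 of them higher in B-1b (against 25.8% of all genes) and 2 lower (against 17.3%). Calr, the lectin chaperone calreticulin, was at 239 and 224 FPKM in B-1a and at 264 and 394 FPKM in B-1b. Pdia3, the disulfide isomerase ERp57 that is bound to tapasin, was at 208 and 206 FPKM against 230 and 347 FPKM, and Canx, calnexin, at 77.6 and 68.1 FPKM against 104 and 89.1 FPKM. The log2 fold changes of Calr, Pdia3 and Canx were 0.48, 0.44 and 0.40, with limma-adjusted p-values of 0.628, 0.654 and 0.569. The other higher gene, Hspa5, which encodes the chaperone BiP, was at 196 and 200.1 FPKM in B-1a and at 250.3 and 427 FPKM in B-1b (log2 ratio 0.72, limma-adjusted p = 0.569). Tapbpl, which encodes the peptide editor TAPBPR and lies on chromosome 6 from 125223933 to 125231860, was lower, at 26.4 and 30.3 FPKM in B-1a and at 9.31 and 18.1 FPKM in B-1b (log2 ratio -1.06 ± 0.35 SE, limma-adjusted p = 0.477). The libraries of its relative Tapbp overlapped, as given above. Uggt1, a sensor of glycoprotein folding, was the other lower gene, at 25.1 and 10.07 FPKM in B-1a and at 7.68 and 9.02 FPKM in B-1b (log2 ratio -0.86, limma-adjusted p = 0.636). Hspa5 and Uggt1 were named after their values were seen.

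Immunoproteasome subunits cut peptides that fit class I molecules, and Psmb8 lies between Tap1 and Tap2 on the chromosome. Psmb8 was at 253 and 283 FPKM in B-1a and at 232 and 217 FPKM in B-1b, with a log2 fold change of -0.25 (adjusted p = 0.678 from limma). Psmb10 was at 58.5 and 70.8 FPKM against 51.4 and 72.2 FPKM, and the 6 genes of this list had log2 fold changes from -0.25 to 0.22. The log2 fold change of Tap1 was thus below those of Psmb9 and Psmb8 on either side of it, a difference that was not tested. Of 5 other peptidases, Lap3, a leucine aminopeptidase, had an unadjusted p below 0.05, at 11.2 and 13.02 FPKM in B-1a and at 20.1 and 17.4 FPKM in B-1b (log2 ratio 0.59, limma-adjusted p = 0.454).

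Of 13 transcription factor genes of the class I promoters, 6 had a positive and 7 a negative log2 fold change. Nfkb1, which encodes the p50 subunit of NF-kappaB, was at 23.9 and 29.4 FPKM against 41.9 and 36.5 FPKM (log2 fold change 0.54, limma-adjusted p = 0.489). Irf1 was near equal, at 31.8 and 38.3 FPKM in B-1a and at 31.2 and 40.1 FPKM in B-1b. Nlrc5, the transactivator of class I genes, was low, at 1.89 and 0.0122 FPKM in B-1a and at 4.87 and 2.28 FPKM in B-1b (log2 ratio 1.36 ± 0.68 SE, limma-adjusted p = 0.616). Rfx5, its partner at the promoter, was at 4.41 and 5.21 FPKM against 6.49 and 3.07 FPKM.

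**Figure D5:**
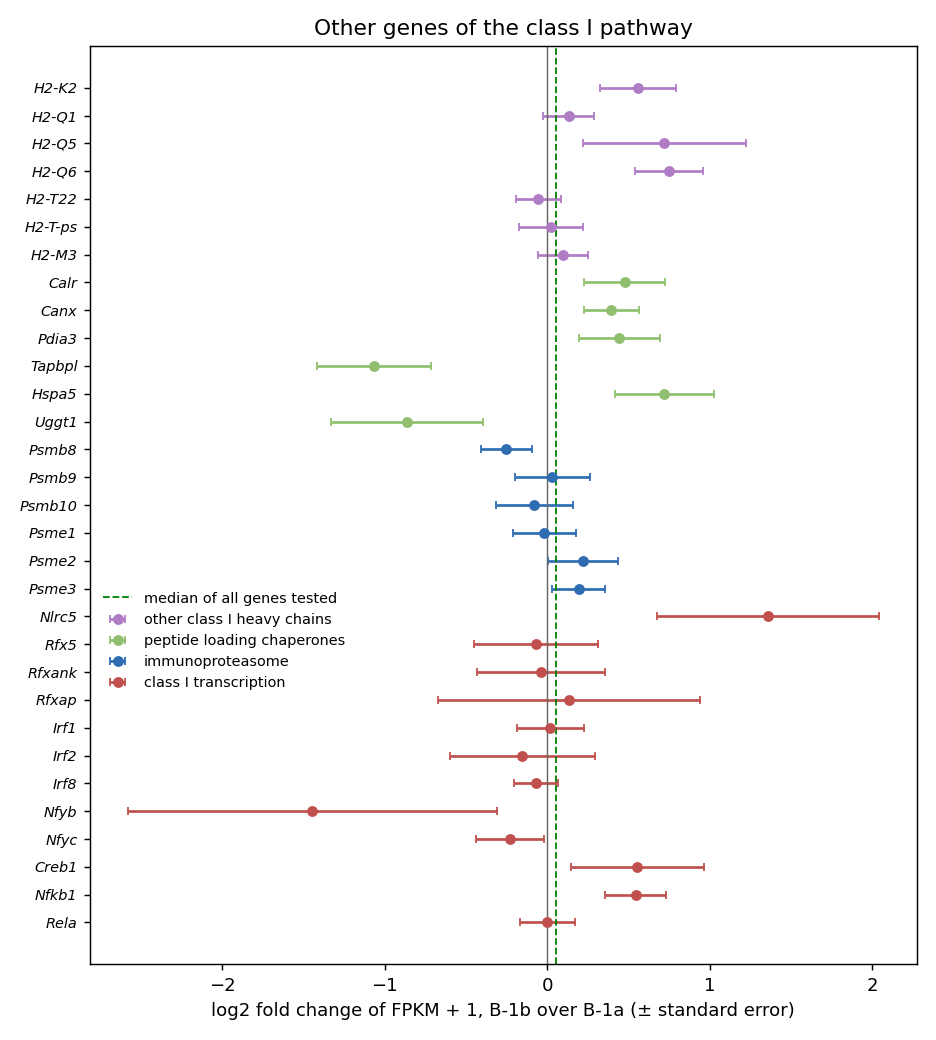
Log2 ratio of B-1b to B-1a with its standard error for the other heavy chain genes, the loading chaperones, the immunoproteasome and 12 of the 13 transcription factor genes, coloured by list, with a dashed line at the median of all genes tested. Tapbpl lies near -1 and H2-Q6 above 0, while the immunoproteasome genes lie close to 0 and Nfyb has the widest bar.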

How the data were processed

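The deposited table holds 6 columns, 1 per stated replicate, and no unit is stated in it. The deposited values were taken to be FPKM, 1 row per transcript, because they are fractional and fill several rows per gene, although the title of the table speaks of read counts. Per the labels and the study's methods, reads were aligned to GRCm38/mm10 with HISAT2 and quantified with StringTie. The sources used here do not give versions, annotation release or row filter. No column was left unassigned (0).

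The members and lists were chosen with earlier results of these data known. Replicates 1 and 2 of each group were used, since the replicates numbered 3 are derived from them. Rows sharing a gene name were added up. A gene was kept when 2 or more of the 4 libraries reached 1 FPKM (7557 genes), and log2(FPKM + 1) was compared with limma 3.58.1 in R 4.3.3 (trend in the prior, Benjamini-Hochberg adjustment over all genes tested, two-sided). Ratios were compared with an exact permutation test in scipy 1.17.1. The limma script was first tested on simulated data with known fold changes. Genes were named by a rule: all 10 members, other heavy chain genes with at least 10 FPKM in a library, listed key genes of each step, and listed genes with an unadjusted p below 0.05. H2-Q6 rows, the ratios of Tap1 and of H2-Q7, and the macrophage markers were singled out after their values were seen. Coordinates and transcripts come from GENCODE M21 and promoter windows from RefSeq (GRCm38.p6). The motifs GGGATTCCC and GAAANNGAA were shortened by 1 base from those planned. Alternatives were another pseudocount, other filters, scalings, columns and priors, a replicate block, rows kept apart and each library left out. Some genes that this rule names are not reported here. The search for the general NF-kappaB consensus was added after the sequences were seen.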

Additional observations from a re-analysis of the deposited data

How the results depend on the processing

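The number of all genes called by limma, 15 as reported, was 7 with no filter on low values, 9 without an intensity trend in the prior, 6 over transcript rows kept apart and 1259 with all 6 columns as deposited. It was 0 with each of the 4 libraries left out in turn (537 to 1172 genes at an unadjusted p under 0.05) and 0 with the replicate block (614 genes). The deviations of the replicates numbered 1 did not correlate across genes (r = 0.00). With 2 pairs, this cannot show whether samples of the same number came from the same mice. The sources used here do not say either, so no conclusion is drawn from the fit with the block. With all 6 columns, which count derived values as libraries, limma called 3 of the 10 genes, Tap1 (adjusted p = 0.00248), H2-Q7 (0.011) and H2-Q4 (0.0187), and 0 in every other setting. Over the 128 fold changes of the 10 genes under an alternative, 125 kept their sign. The exceptions were H2-K1 without B-1a replicate 2 (0.19, range -0.27 to 0.19 with each library left out), Tap2 without B-1a replicate 1 (-0.17, range -0.17 to 0.71) and Tapbp without B-1b replicate 2 (0.0035, range -0.15 to 0.0035). The median log2 fold change over the 10 genes, -0.06, lay between -0.17 and 0.0758 with each library left out, the highest without B-1a replicate 2. With rows kept apart, 17 of 28 rows were higher in B-1b, against 4 of 10 genes. Erap1 and H2-Q4 have no value under the minimum of 10 FPKM. The depth of the libraries is unknown, so no counting error can be set beside these values. The number of the 10 genes at an unadjusted p below 0.05, 3 as reported, was 2 with scaling without immunoglobulin genes, with the minimum of 10 FPKM and with the replicate block. Over all genes, limma passed 709 of 7557, 500 of 4671 and 614 of 7557 in these settings. In every fit without a library, the lone library of its group is assumed to vary like those of the other group.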

Other observations

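Class II molecules present peptides from outside the cell to CD4 T cells, and their genes lie in the same region of chromosome 17. Of 13 class II genes tested, 5 had a positive and 8 a negative log2 ratio of B-1b to B-1a, with a median of -0.07, and limma called 0, against 0.198% of all genes, with 1 of the 13 at an unadjusted p below 0.05, against 9.66%. That gene was H2-Aa, which encodes an alpha chain, from 34282744 to 34287823. It was at 71.4 and 76.4 FPKM in B-1a and at 136 and 145 FPKM in B-1b, with a log2 fold change of 0.92 ± 0.14 (SE, limma-adjusted p = 0.223). Its beta chain gene H2-Ab1 was at 4142 and 4080 FPKM in B-1a and at 3617 and 4218 FPKM in B-1b, where the groups overlap. H2-Aa was thus far below H2-Ab1 in every library. Whether the rows of H2-Aa hold all of its transcripts cannot be told from the values. H2-Eb1 was at 1009 and 962 FPKM against 833 and 873 FPKM, and Cd74, the invariant chain, at 10329 and 11686 FPKM against 8969 and 10818 FPKM. Ciita, the transactivator of class II genes, was at 6.90 and 17.6 FPKM in B-1a and at 6.99 and 8.70 FPKM in B-1b (log2 ratio -0.46, limma-adjusted p = 0.763). The macrophage marker Adgre1, higher in both B-1b libraries, moved in the same direction as H2-Aa, and the part of macrophages in that difference was not tested.

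Of the other cell types, markers of T cells and NK cells were low. The 3 T cell markers read summed to at most 7.97 FPKM in a library, and Nkg7, the only NK cell marker read, was at 4.67 to 7.87 FPKM. The 3 mast cell markers read summed to 47.5 to 81.9 FPKM, with the highest sum in B-1b replicate 1. The 4 plasma cell markers summed to 38.1 to 51.1 FPKM. Both sums are of the order of the level of Tap1, at 31.5 to 72.6 FPKM.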
